A study of Mus musculus with 14 samples.

Results

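The 43 genes described here are cell cycle and DNA replication genes: 8 that license replication origins, 7 of DNA and nucleotide synthesis, 3 of the G1/S cyclin E and E2F step, 2 D-type cyclins, 2 inhibitors of cyclin-dependent kinases (CDKs) and 21 that act in mitosis or peak towards it. They were chosen by symbol from knowledge of the cell cycle, with earlier results of these data known. All 43 of them were found among the 50508 gene symbols of each of 2 count tables from bulk RNA sequencing of mouse T cells. The study is about ILTCk, killer cells among the innate-like αβ T cells of tumours, and about their progenitors in the thymus (ILTCkP). The 10 libraries fall into 5 groups of 2. ILTCkP, sorted from the thymus of C57BL/6 mice as cells with little or no CD4 and CD8α and no binding of the CD1d tetramer, were set against CD8SP, conventional CD8 single-positive thymocytes of the same strain. NK1.1+ ILTCk and NK1.1- ILTCk were set against PD1+ Tconv, conventional T cells bearing PD-1; these 3 groups share the model label retrogenic, a term for mice rebuilt from blood stem cells with an introduced T cell receptor, whose receptors the labels do not name. NK1.1+ ILTCk were sorted from tumours as CD8α+ TCRβ+ cells with NK1.1 and without PD-1, and PD1+ Tconv as CD8α+ TCRβ+ cells with PD-1 and without NK1.1. The labels give no gate or tissue for NK1.1- ILTCk, no tumour model for the retrogenic mice and no age for any animal, and the cell type label of the ILTCk libraries reads ILTCkP where their titles read ILTCk. The replicates are called biological, but separate animals are not stated, so the spread that the p-values rest on is the one between these libraries and may be technical.

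In a dividing T cell, the MCM helicase is loaded onto replication origins in G1 by Cdc6 and Cdt1, a step called licensing. Cyclin E and the E2F factors then start DNA synthesis, and the products of the mitotic genes condense the chromosomes, build the spindle and divide the cell. D-type cyclins drive the exit from G1, while p21 and p27, the products of Cdkn1a and Cdkn1b, hold it back. In the thymus, cycling is a mark of early progenitors and of blasts on their way to the double-positive stage, and most single-positive thymocytes rest; in tumours, T cells that meet their antigen can divide.

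The promoters of the licensing and mitotic genes differed in E2F sites and cell cycle homology regions, while CCAAT boxes were common in both. Those of 3 licensing genes and of the 3 genes that differed in the thymus are shown. The sequences are RefSeq's, on GRCm38.p6, and run over 300 bases, with 250 before and 50 after the annotated start, on the gene's own strand. Capitals mark every match, on either strand, to the E2F site TTTNNCGC, to the cell cycle homology region TTTGAA (CHR) or to the box CCAAT; matches to TTTNNCGC on the 2 strands can overlap each other, as in Mcm5 and Mcm6.
Mcm5 (chr8:75109259-75109558, plus strand): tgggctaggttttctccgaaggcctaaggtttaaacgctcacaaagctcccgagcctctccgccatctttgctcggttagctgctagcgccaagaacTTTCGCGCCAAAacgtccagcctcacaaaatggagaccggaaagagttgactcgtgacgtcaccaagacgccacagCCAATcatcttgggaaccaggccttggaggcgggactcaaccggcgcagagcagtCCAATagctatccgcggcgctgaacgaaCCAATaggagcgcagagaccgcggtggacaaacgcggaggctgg
Mcm6 (chr1:128359656-128359955, minus strand): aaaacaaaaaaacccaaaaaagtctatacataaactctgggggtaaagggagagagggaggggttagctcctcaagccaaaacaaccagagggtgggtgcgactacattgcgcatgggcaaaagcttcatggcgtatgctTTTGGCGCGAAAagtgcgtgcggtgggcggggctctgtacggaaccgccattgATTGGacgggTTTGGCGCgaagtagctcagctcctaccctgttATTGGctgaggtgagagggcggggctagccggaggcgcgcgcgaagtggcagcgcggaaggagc
Cdc6 (chr11:98907901-98908200, plus strand): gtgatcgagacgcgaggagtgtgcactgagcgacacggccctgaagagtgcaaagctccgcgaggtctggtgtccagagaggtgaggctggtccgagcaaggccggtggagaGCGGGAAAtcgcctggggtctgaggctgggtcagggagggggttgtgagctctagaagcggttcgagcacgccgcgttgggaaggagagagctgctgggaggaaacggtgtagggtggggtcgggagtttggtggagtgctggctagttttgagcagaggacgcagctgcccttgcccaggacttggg
Top2a (chr11:99024140-99024439, minus strand): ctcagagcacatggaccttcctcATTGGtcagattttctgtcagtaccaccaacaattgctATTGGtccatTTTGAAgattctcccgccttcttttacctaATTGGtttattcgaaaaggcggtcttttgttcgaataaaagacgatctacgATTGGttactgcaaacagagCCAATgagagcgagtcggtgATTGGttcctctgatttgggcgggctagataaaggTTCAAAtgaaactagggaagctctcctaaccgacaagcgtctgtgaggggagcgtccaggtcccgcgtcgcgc
Cenpe (chr3:135212313-135212612, plus strand): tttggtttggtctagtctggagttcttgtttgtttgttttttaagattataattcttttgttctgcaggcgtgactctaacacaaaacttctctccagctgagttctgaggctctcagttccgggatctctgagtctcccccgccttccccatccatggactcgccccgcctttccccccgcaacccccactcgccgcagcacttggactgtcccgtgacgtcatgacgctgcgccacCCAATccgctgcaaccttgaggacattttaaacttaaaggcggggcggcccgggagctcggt
Cenpf (chr1:189688037-189688336, minus strand): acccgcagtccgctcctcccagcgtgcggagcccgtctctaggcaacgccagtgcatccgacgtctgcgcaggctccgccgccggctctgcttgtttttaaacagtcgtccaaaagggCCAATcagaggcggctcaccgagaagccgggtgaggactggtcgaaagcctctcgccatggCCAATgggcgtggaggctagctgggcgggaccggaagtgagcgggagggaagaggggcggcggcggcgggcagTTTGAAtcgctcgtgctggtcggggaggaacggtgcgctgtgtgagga

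E2F sites are known from promoters that fire at the G1/S step, and CHR elements with CCAAT boxes from promoters that fire before mitosis. A promoter was found for 35 of the 43 genes. Where a gene had several entries the first was used, while the shares of all entries count every entry. The E2F letters stood in 6 of 7 licensing promoters (85.7%) and in 1 of 17 mitotic promoters (5.88%, the one of Cdk1), against 5.17% of all 32851 promoter entries. Among these 6, the windows of Cdc6 and Mcm7 lay wholly inside the gene as annotated in GENCODE M21. That annotation starts Cdc6 at 98907801 and Mcm7, on the minus strand, at 138172422. The CHR letters stood in 1 of 7 licensing promoters (14.3%, the one of Mcm2) and in 12 of 17 mitotic promoters (70.6%), against 17.9% of all entries. The CCAAT letters stood in 5 of 7 licensing promoters (71.4%) and in 15 of 17 mitotic promoters (88.2%), against 37.4% of all entries. Of the promoters printed, Top2a held 2 CHR and 6 CCAAT matches, Cenpf 1 and 2, and Cenpe 0 and 1. A match is a run of letters and not a bound site.

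Total counts were 16530085 to 32097301 per library, and the 43 genes together held 0.922% and 0.951% of the counts in ILTCkP, 1.12% and 1.19% in CD8SP, and 0.233% to 0.537% in the 6 libraries of the tumour table. All 43 genes passed the filter on low counts in both tables, where 14634 and 18091 genes were tested. Levels are given as CPM, counts scaled to the library's total after TMM normalisation. The tables hold no common library and were scaled separately, so levels across them are set side by side without a test. T cell markers were detected in every library, with summed levels of 8583 to 11860 CPM over 9 markers in the thymic table. In the tumour table other cells' markers were also high, as given with those comparisons.

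**Figure D1:**
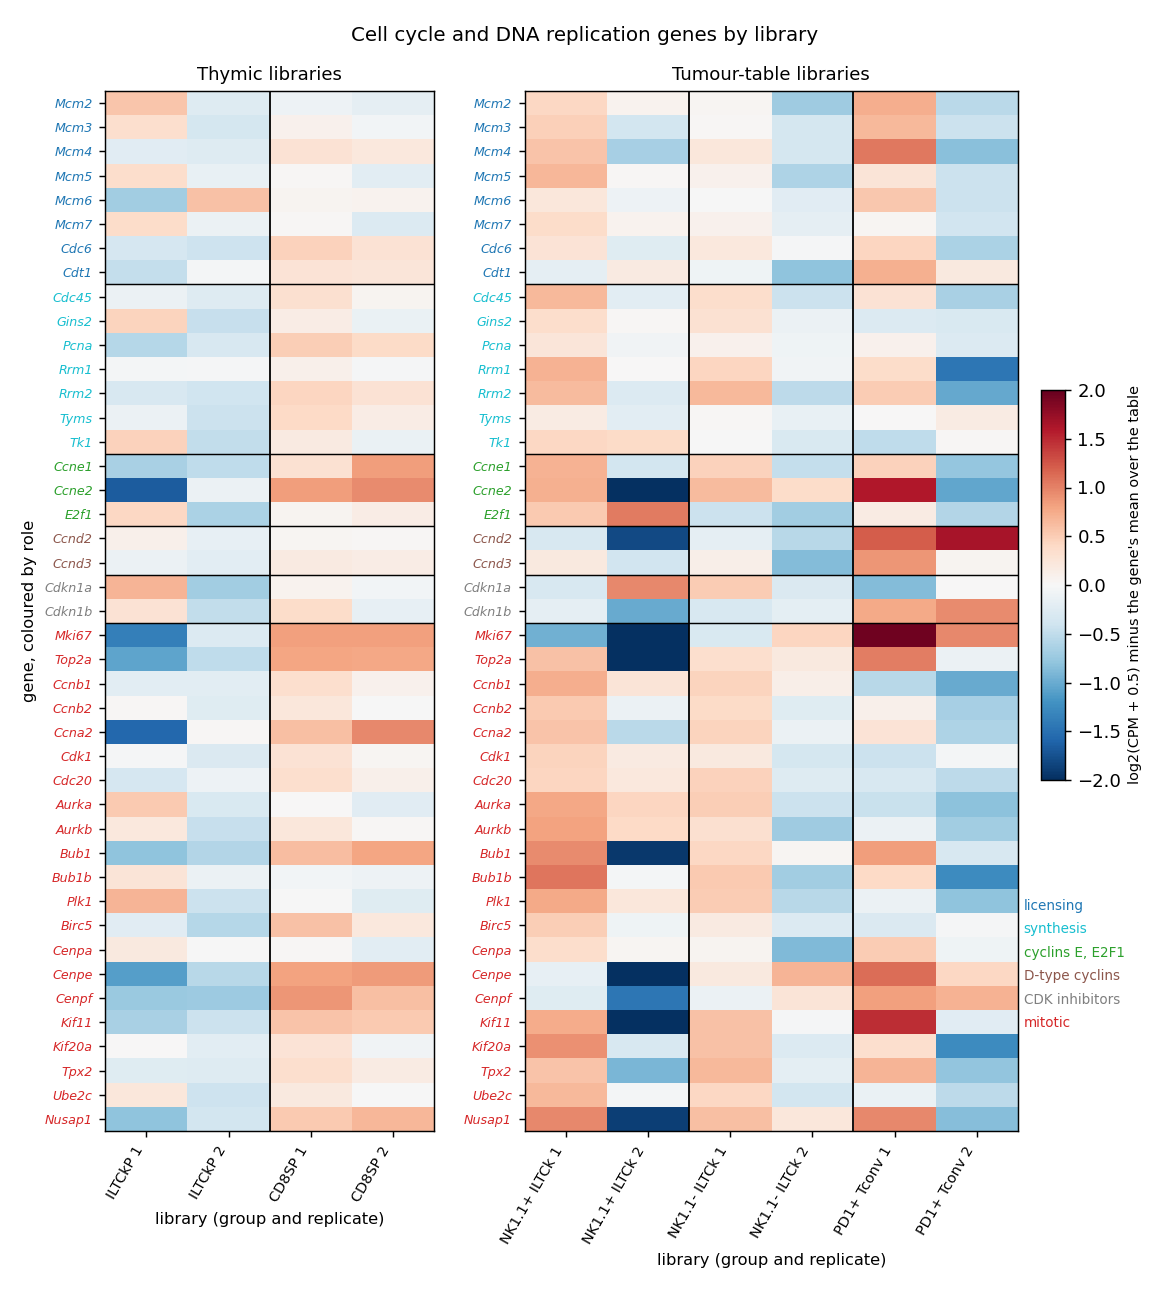
Level of each of the 43 genes in each library, as log2(CPM + 0.5) minus the gene's mean over the libraries of the same table, with red above and blue below that mean and colours saturating at 2 and -2; columns are libraries and rows are genes grouped by role. Mki67, Top2a, Cenpe, Cenpf, Kif11, Bub1 and Nusap1 are blue in both ILTCkP libraries, and the darkest blue cells of the right panel are those of NK1.1+ ILTCk replicate 2 for Ccne2, Mki67, Top2a, Bub1, Cenpe, Kif11 and Nusap1.

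Within a group the genes differed widely in level per kilobase of transcript. In ILTCkP the highest were Mcm2 (261 ± 101 CPM per kb), Mcm5 (250.4 ± 60), Mcm7 (230.2 ± 55), Ccnd3 (222 ± 10.7) and Cenpa (213 ± 22.1, all SD, n = 2), whose differences were smaller than the spread of the first 3. In CD8SP the order was Ccnd3 (281 ± 3.39 CPM per kb), Pcna (260.1 ± 13.3), Mcm5 (216 ± 24) and Mcm2 (205 ± 7.85), of which Mcm5 and Mcm2 lay within their spread. Pcna, the sliding clamp of the DNA polymerases, headed all 3 groups of the tumour table, at 169.6 ± 26.2 CPM per kb for NK1.1+ ILTCk, 159 ± 14.1 for NK1.1- ILTCk and 149 ± 26 for PD1+ Tconv. Cdkn1a was the lowest in both thymic groups, at 0.699 ± 0.593 CPM per kb in ILTCkP and 0.612 ± 0.0483 in CD8SP. Cenpe and Cenpf, both with long transcripts, were among the 4 lowest of the 43 in every group.

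Thymic ILTCk progenitors were compared with CD8 single-positive thymocytes as conventional cells of the same organ. Of the 43 genes, 3 were lower in ILTCkP and 0 were higher at an adjusted p under 0.05 (edgeR's quasi-likelihood test with Benjamini-Hochberg adjustment over all tested genes), where 1.33% of all tested genes were called lower and 3.38% higher. The 3 were Top2a, Cenpe and Cenpf, all mitotic. None of the 8 licensing genes was called, and their median log2 fold change was 0.02 (range -0.76 to 0.35), beside -0.44 (range -1.64 to 0.34) for the 21 mitotic genes, -0.33 for the 43 genes and 0.01 for all tested genes. At an unadjusted p under 0.05, 15 of the 43 genes were lower and 0 higher, 2 of them licensing and 9 mitotic, against 9.06% of all genes lower and 13% higher.

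Top2a encodes topoisomerase IIα, which untangles replicated chromosomes, and lies at chromosome 11, 98992943 to 99024189 (GRCm38). It had 151.5 and 223 CPM in ILTCkP, against 548 and 544 CPM in CD8SP, without overlap. Its log2 fold change was -1.54 ± 0.26 (SE, adjusted p = 0.0334 by edgeR, n = 2 each). Cenpe, a kinetochore motor that aligns chromosomes (chromosome 3, 135212537 to 135273611), had 14.6 and 21.6 CPM in ILTCkP, against 55.7 and 57.5 CPM in CD8SP. It fell by 1.64 ± 0.32 on the log2 scale (adjusted p = 0.0475 by edgeR). Cenpf, a kinetochore protein that accumulates before mitosis (chromosome 1, 189640606 to 189688086), had 26.8 and 26.9 CPM in ILTCkP, against 83.0 and 68.2 CPM in CD8SP. It fell by 1.49 ± 0.26 (adjusted p = 0.0373 by edgeR). All 3 were lower in both ILTCkP libraries than in either CD8SP library, and all 3 calls were lost when either CD8SP library was left out, where 0 of the 43 genes were called (of all tested genes, 1.1% lower and 3.14% higher without CD8SP replicate 1, and 0.957% lower and 2.82% higher without CD8SP replicate 2). Without ILTCkP replicate 1, 20 genes were called (19 lower, with Mcm6 the 1 higher), where 7.58% of all tested genes were lower and 10.3% higher. Without ILTCkP replicate 2, 24 were called (19 lower and 5 higher), where 22.3% of all tested genes were lower and 22.5% higher.

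Other mitotic genes had fold changes of similar size and adjusted p-values just above the threshold. Kif11, the motor that pushes spindle poles apart, had 73.1 and 85.7 CPM in ILTCkP, against 171 and 165 CPM in CD8SP, with a log2 fold change of -1.08 ± 0.22 (edgeR adjusted p = 0.0536). Bub1, a spindle checkpoint kinase, had 14.2 and 16.5 CPM in ILTCkP, against 38.9 and 43.6 CPM in CD8SP, with -1.43 ± 0.30 (edgeR adjusted p = 0.0567). Mki67, the proliferation marker Ki-67, had 23.3 and 49.96 CPM in ILTCkP, against 108 and 107.5 CPM in CD8SP, with -1.55 ± 0.40 (edgeR adjusted p = 0.0947). In these 3 genes too the libraries of the groups did not overlap. Ccnb1, the cyclin that drives entry into mitosis, had 73.2 and 72.7 CPM in ILTCkP, against 107 and 90.1 CPM in CD8SP, and a log2 fold change of -0.43 ± 0.23 (edgeR adjusted p = 0.327). Aurkb, the kinase of the chromosomal passenger complex, had 178 and 112 CPM in ILTCkP, against 182 and 157 CPM in CD8SP, with -0.22 ± 0.29 (edgeR adjusted p = 0.688) and overlapping libraries. Nusap1 had a log2 fold change of -1.17 ± 0.25 (edgeR adjusted p = 0.0642) and Birc5 one of -0.80 ± 0.25 (edgeR adjusted p = 0.139), both without overlap. Ccnb2, Cdk1, Cdc20, Kif20a, Tpx2 and Ube2c had log2 fold changes of -0.51 to -0.16, and none passed the test. Aurka, Bub1b, Plk1 and Cenpa had log2 fold changes of 0.16 to 0.34, with overlapping libraries. Ccna2 had one of -1.37 ± 0.54, with 14.7 and 45.2 CPM in ILTCkP against 67.8 and 87.2 CPM in CD8SP. Ccna2 shares bases with Exosc9 on the opposite strand, at up to 57.9 CPM in these libraries. Kif20a shares 1271 bases with Cdc23 in the same way, at up to 136 CPM. Whether the counting used strand is not stated in the labels.

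**Figure D2:**
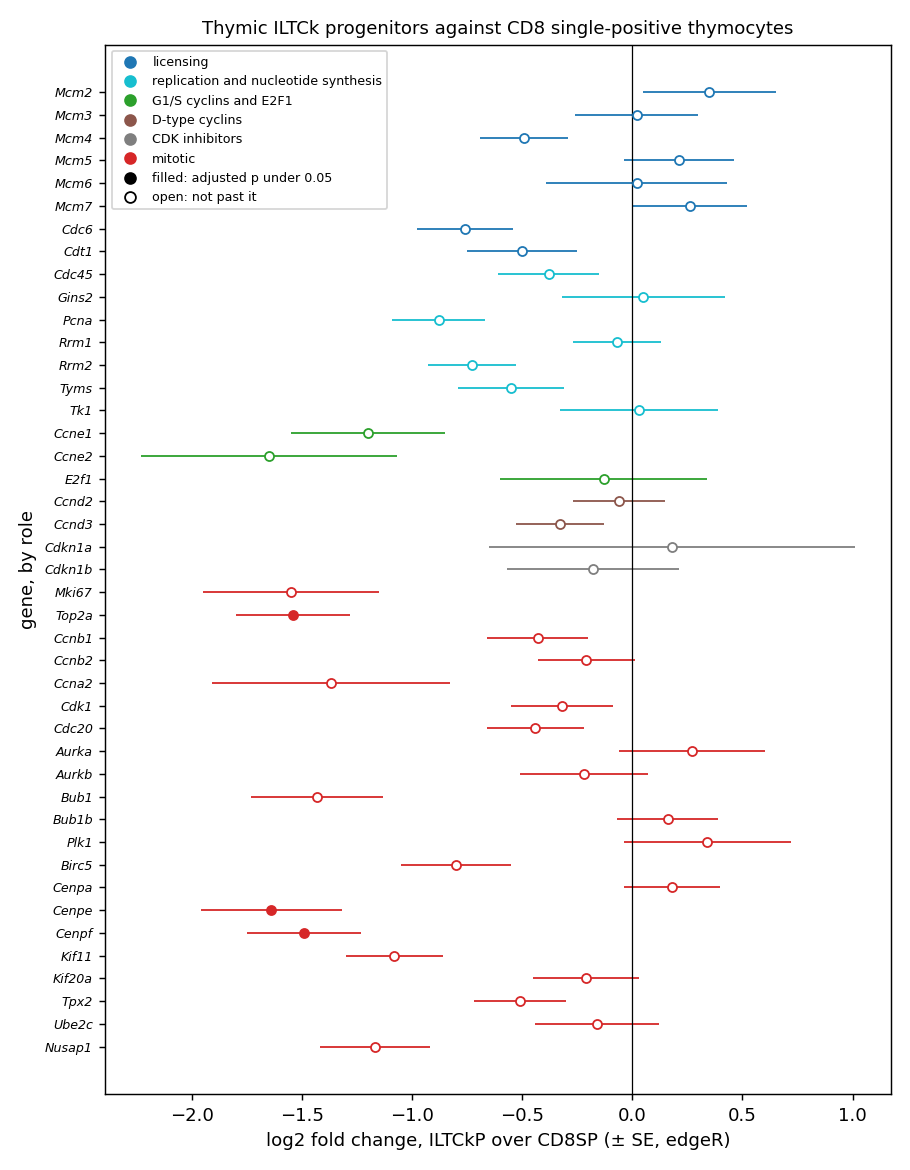
Log2 fold change of each of the 43 genes in ILTCkP over CD8SP (horizontal axis, ± SE from edgeR, n = 2 libraries each), with genes grouped and coloured by role. Filled points, those past an adjusted p of 0.05, are Top2a, Cenpe and Cenpf; the licensing genes lie between -0.76 and 0.35.

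The licensing genes had values on both sides of CD8SP. Mcm2 had 1120 and 639 CPM in ILTCkP, against 710.2 and 673 CPM in CD8SP, and Mcm5 had 990.2 and 703 CPM, against 789 and 674 CPM. The 2 ILTCkP libraries lay on both sides of CD8SP for Mcm2, and the log2 fold changes, 0.35 ± 0.30 and 0.21 ± 0.25, did not pass the test (edgeR adjusted p = 0.544 and 0.657). Mcm6 ran the other way between the ILTCkP libraries, with 478 and 1159 CPM, against 805 and 813 CPM in CD8SP. The loading factor Cdc6 had 72.6 and 68.4 CPM in ILTCkP, against 127 and 113 CPM in CD8SP, and Cdt1, its partner in loading, 58.2 and 79.1 CPM, against 98.1 and 96.8 CPM. Both lay below CD8SP in both libraries, with log2 fold changes of -0.76 ± 0.22 and -0.50 ± 0.25 (edgeR adjusted p = 0.12 and 0.306). Mcm4 lay below as well (-0.49 ± 0.20, edgeR adjusted p = 0.217), and Mcm7 overlapped (0.26 ± 0.26, edgeR adjusted p = 0.597). Mcm3 and Mcm6 both had log2 fold changes of 0.02, with errors of 0.28 and 0.41.

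The genes of DNA and nucleotide synthesis were also not called, with a median log2 fold change of -0.38. Pcna had 196.5 and 233 CPM in ILTCkP, against 409 and 381 CPM in CD8SP, with -0.88 ± 0.21 (edgeR adjusted p = 0.0801). Rrm2, the regulated subunit of ribonucleotide reductase, had 216 and 204 CPM, against 366 and 332 CPM, with -0.73 ± 0.20 (edgeR adjusted p = 0.108), while Rrm1, the large subunit, had 337 and 341 CPM, against 370.4 and 340.0 CPM, with -0.07 ± 0.20 (edgeR adjusted p = 0.866). Tyms, which makes thymidylate, and Cdc45, part of the active helicase, had -0.55 ± 0.24 and -0.38 ± 0.23 (edgeR adjusted p = 0.251 and 0.377). Gins2 and Tk1 had 0.05 ± 0.37 and 0.03 ± 0.36, with overlapping libraries. Gins2 shares 2758 bases of its 3.9 kb transcript with Gse1 on the opposite strand. Gse1 had up to 58.7 CPM in the thymic libraries and up to 20.2 CPM in the tumour table, so counts of Gins2 are uncertain in both. Libraries of Pcna, Rrm2, Tyms and Cdc45 did not overlap between the groups. Of the E-type cyclins, which open S phase, Ccne1 had 10.2 and 11.3 CPM in ILTCkP, against 20.2 and 29.4 CPM in CD8SP, and Ccne2 3.27 and 10.5 CPM, against 20.9 and 22.6 CPM. Both lay below CD8SP without overlap, and neither passed the test (edgeR adjusted p = 0.12 and 0.18). Ccne2 shares bases with Ints8 on the opposite strand, which had up to 51.9 CPM. E2f1 had -0.13 ± 0.47.

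None of the D-type cyclins and CDK inhibitors was called in the thymus, and of these 4 genes Ccnd3 was the one whose libraries did not overlap. Ccnd2 had 1237 and 1033 CPM in ILTCkP, against 1193 and 1169 CPM in CD8SP, with a log2 fold change of -0.06 ± 0.21 (edgeR adjusted p = 0.893). Ccnd3, the D-type cyclin needed for the expansion of early thymocytes, had 486 and 454 CPM, against 598 and 588 CPM, with -0.33 ± 0.20 (edgeR adjusted p = 0.366). Cdkn1b had 39.5 and 22.9 CPM, against 42.1 and 28.8 CPM, with -0.18 ± 0.39 (edgeR adjusted p = 0.816). Cdkn1a had low levels in both groups, with 2.33 and 0.582 CPM in ILTCkP, against 1.34 and 1.20 CPM in CD8SP, and a log2 fold change of 0.18 ± 0.83 (edgeR adjusted p = 0.917).

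Over the 43 genes, the ILTCkP libraries lay below both CD8SP libraries without overlap for 23 genes and above them for 0, where 29.3% of all tested genes lay below and 28.8% above. A wider list of 121 cell cycle genes had 118 that passed the filter; 1 of them fell and 0 rose past an adjusted p of 0.05 (1.33% of all tested genes lower, 3.38% higher). It was Kif23, a motor of the midzone of the dividing cell, with 54.4 ± 6.78 CPM in ILTCkP and 138 ± 5.39 CPM in CD8SP (SD, n = 2 each), which fell by 1.34 ± 0.23 on the log2 scale (edgeR adjusted p = 0.0342). At an unadjusted p under 0.05, 35 of the 118 were lower and 2 higher, against 9.06% and 13% of all tested genes. The 48 further mitotic genes had a median log2 fold change of -0.52 and the 12 further genes of licensing and origin firing -0.78. The 31 of the fork and of synthesis had -0.31, the 16 G1 regulators -0.08 and the 11 brakes on the cycle -0.30. Of the 12 further licensing and firing genes, 10 lay below CD8SP without overlap and 0 above, where 29.3% and 28.8% of all tested genes did. The wider licensing list thus lay lower than the 8 licensing genes, whose median was 0.02. DESeq2 called 11 of the 43 genes lower and 0 higher (4.82% of all genes lower, 8.82% higher), 8 of them mitotic and 0 of them licensing: Pcna, Ccne1, Ccne2, Mki67, Top2a, Ccna2, Bub1, Cenpe, Cenpf, Kif11 and Nusap1. By limma-voom 6 were lower and 0 higher (1.82% of all genes lower, 3.76% higher). With the replicate number as a block edgeR called 11 lower and 0 higher (6.46% of all genes lower, 8.66% higher). Beyond Top2a, Cenpe and Cenpf these were Mki67, Ccna2, Nusap1 and Ccne2 (edgeR adjusted p = 0.00128, 0.00454, 0.00498 and 0.00857 with the block). The rest were Kif11, Bub1, Pcna and Birc5 (edgeR adjusted p = 0.00881, 0.00967, 0.0221 and 0.0391 with the block).

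Markers of double-positive thymocytes differed in level in this comparison. The 10 markers summed to 167 and 204 CPM in ILTCkP, against 5327 and 4582 CPM in CD8SP. In CD8SP these were mostly Cd8a and Cd8b1, which the sort itself selects. EdgeR called 3 of the 10 lower, where 1.33% of all tested genes were lower. The recombinase gene Rag1 had 0.355 and 0.674 CPM in ILTCkP, against 6.83 and 5.09 CPM in CD8SP, and Rag2 0.236 and 1.07 CPM, against 3.17 and 3.16 CPM. Dntt, the terminal transferase, had 10.9 and 22.6 CPM, against 64.3 and 31.4 CPM. No marker of the list was at 0 counts. Of the 8 B cell markers 7 were tested, with a median log2 fold change of 1.8. EdgeR called 1 of them higher, where 3.38% of all tested genes were higher. It was Blk, a kinase of B cells and of some innate-like T cells. Blk had 59.1 and 19.2 CPM in ILTCkP, against 0.31 and 0.759 CPM in CD8SP. The summed level of that list was 815 and 856 CPM in ILTCkP, against 889 and 763 CPM in CD8SP; Ms4a1 was at 0 counts in ILTCkP replicate 1 and Pax5 in CD8SP replicate 2. The macrophage list had 9 of 14 markers tested, a median of 1.53 and sums of 50.2 and 38.8 CPM in ILTCkP, against 30.4 and 27.1 CPM in CD8SP. The erythroid list had 5 of 7 tested, a median of 2.72 and sums of 112 and 72.7 CPM in ILTCkP, against 74.2 and 67.2 CPM in CD8SP. EdgeR called 0 of these macrophage and erythroid markers, and DESeq2 called C1qa, Apoe, Ccr2 and Hba-a1 higher (8.82% of all genes higher by DESeq2). The part of any such cells in the lower mitotic transcripts was not tested, and in these bulk libraries fewer cells of a type and less RNA per cell cannot be told apart.

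Fold changes in the thymus also varied with the base composition of the transcripts and, among the 43 genes, with transcript length. Over all tested genes the median log2 fold change was -0.58 for transcripts under 45% GC, -0.09 for 45 to 50%, 0.23 for 50 to 55% and 0.40 above 55%. The 43 genes had medians of -1.30, -0.50, 0.16 and -0.15 in the same classes. By length, the medians over all tested genes were -0.03 under 2 kb, 0.07 for 2 to 4 kb, -0.01 for 4 to 6 kb and -0.06 above. The 43 genes had -0.21, -0.27, -0.51 and -1.52 in these length classes, the last from 4 genes. Across the 21 mitotic genes, which share all 4 libraries, Pearson's r of the fold change was -0.74 with log2 transcript length and 0.74 with GC, as a description, beside 0.04 and 0.26 over all tested genes. Top2a, Cenpe and Cenpf have GC contents of 43.4%, 42.9% and 43.3% and transcripts of 5.22, 7.91 and 11.1 kb. With each library's trend on length and GC taken into the fit, an alternative added after the data were seen, Top2a kept its call at -1.07 (edgeR adjusted p = 0.0175) and Cenpe at -1.06 (edgeR adjusted p = 0.0494), while Cenpf had -0.84 (edgeR adjusted p = 0.174); 2 of the 43 genes were then called, both lower, against 2.04% of all genes lower and 4.13% higher. The same fit gave -0.07 for Mcm2, -0.03 for Mcm5, -0.78 for Cdc6 and -0.91 for Cdt1. Of the mitotic genes just above the threshold, it gave -0.44 for Kif11, -0.7 for Bub1, -0.57 for Nusap1 and -1.27 for Mki67, each smaller in size than without it.

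**Figure D3:**
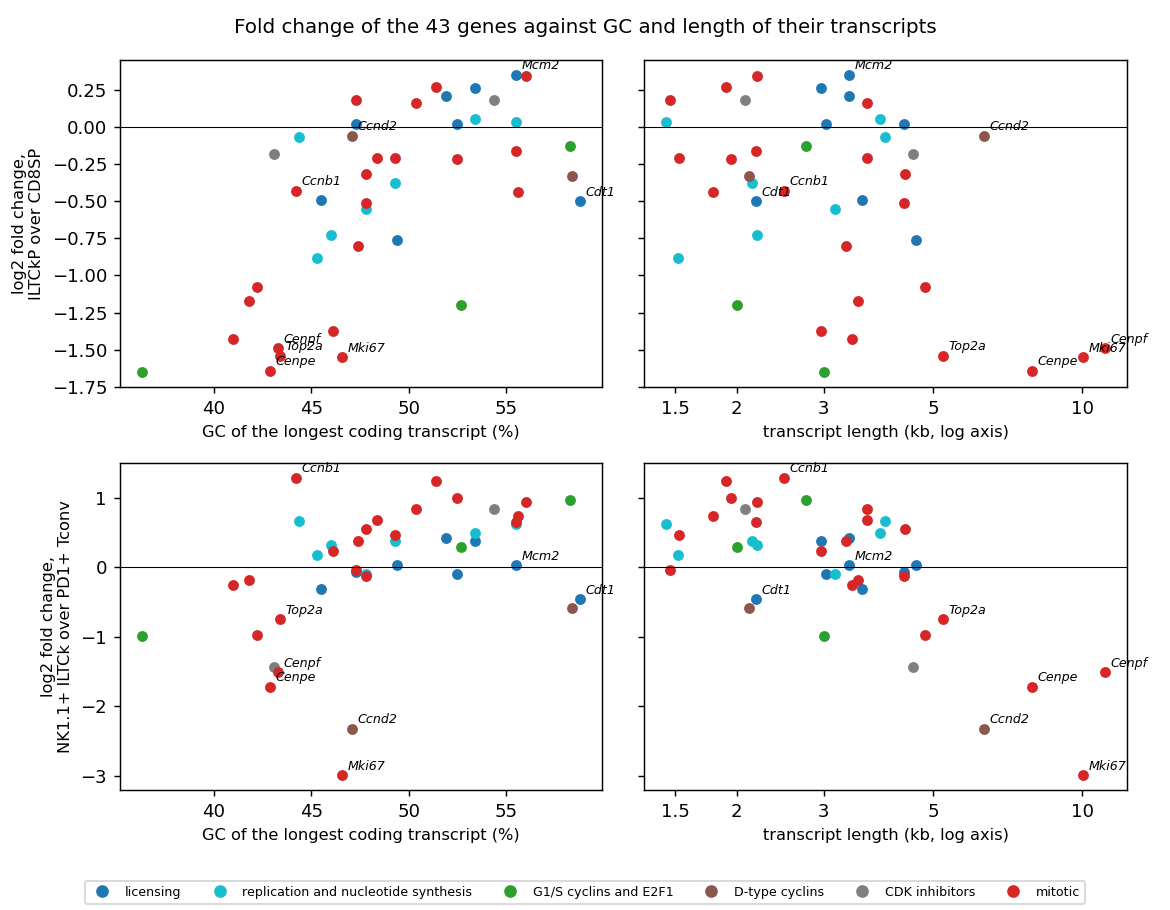
Log2 fold change of the 43 genes against the GC content (left, %) and the length (right, kb, log axis) of the longest protein-coding transcript, for ILTCkP over CD8SP (top) and NK1.1+ ILTCk over PD1+ Tconv (bottom), coloured by role. In the thymus Top2a, Cenpe and Cenpf lie at low GC with log2 fold changes of -1.49 to -1.64; in the tumour table the 4 transcripts over 6 kb, among them Mki67 at -2.99, lie lowest.

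The licensing arm was set against the mitotic arm within each library, as the mean log2(CPM + 0.5) of the 8 licensing genes minus that of the 21 mitotic genes, a score that gets no test because its genes were chosen. The score was 1.99 and 1.88 in ILTCkP, against 1.41 in both CD8SP libraries. The ILTCkP libraries were the higher ones without overlap, and the difference of the means was 0.52. Mean log2 levels were 6.57 and 6.56 for mitotic genes in ILTCkP, against 7.30 and 7.17 in CD8SP, and 8.55 and 8.44 for licensing genes in ILTCkP, against 8.71 and 8.58 in CD8SP. With Ccnb1, Aurkb and Top2a alone as the mitotic side the difference was 0.60, and with the length and GC trends taken out it was 0.23. The direction belongs to the 8 licensing genes chosen. In the wider list the further licensing and firing genes had a median log2 fold change of -0.78, lower than the -0.52 of the further mitotic genes.

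In the tumour table NK1.1+ ILTCk had scores of 0.51 and 1.24, NK1.1- ILTCk of 0.41 and 0.44, and PD1+ Tconv of 0.85 and 0.66. Both NK1.1- ILTCk libraries lay below both PD1+ Tconv libraries (a difference of -0.33), and the NK1.1+ ILTCk libraries lay on either side of them (0.13, which turned to -0.32 with Ccnb1, Aurkb and Top2a alone, to -0.23 with the length and GC trends taken out and to -0.24 without NK1.1+ ILTCk replicate 2). NK1.1+ ILTCk was above NK1.1- ILTCk in both libraries, by 0.45, or by 0.09 without NK1.1+ ILTCk replicate 2. With Ccnb1, Aurkb and Top2a alone as the mitotic side the NK1.1+ libraries had -0.44 and 0.25, against -0.37 and -0.36 for the NK1.1- libraries, so that they overlapped (a difference of 0.27). All 6 scores were under the 4 thymic ones. The licensing genes summed to 3832 to 4541 CPM in the thymic libraries and 639 to 1253 CPM in those of the tumour table, and the mitotic genes to 2502 to 3938 CPM and 1099 to 2102 CPM. Per library the log2 ratio of these sums was 0.09 to 0.66 in the thymus and -0.98 to -0.49 in the tumour table. The tables differ in tissue, mice and processing, which cannot be told apart here.

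**Figure D4:**
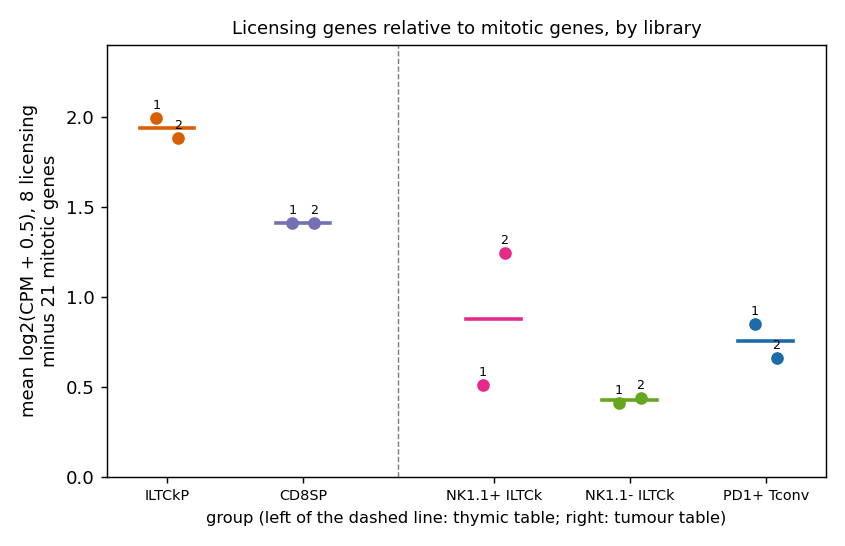
Mean log2(CPM + 0.5) of 8 licensing genes minus that of 21 mitotic genes (vertical axis) in each library, numbered by replicate, with bars at group means. ILTCkP sits at 1.88 and 1.99 above CD8SP at 1.41, and the 6 libraries of the tumour table sit between 0.41 and 1.24.

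NK1.1+ ILTCk and PD1+ Tconv were compared as innate-like and conventional T cells of tumours. By edgeR 0 of the 43 genes passed an adjusted p of 0.05, as did 0 of all 18091 tested genes (0% called); at an unadjusted p under 0.05, 2 were higher (6.98% of all genes) and 4 lower (7.34%). DESeq2 called 2 of the 43 lower and 0 higher (3.55% of all genes lower, 3.9% higher), Ccnd2 and Mki67, and limma-voom called 0 (0.0166% of all genes lower, 0% higher). With the replicate number as a block edgeR called the same 2 lower and 0 higher, where 1.79% of all genes were lower and 2.39% higher. The median log2 fold change was -0.02 for licensing genes, 0.38 for synthesis genes, 0.38 for mitotic genes and -0.04 for all tested genes.

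Mki67 had 20.2 and 9.21 CPM in NK1.1+ ILTCk, against 155 and 78.2 CPM in PD1+ Tconv, a log2 fold change of -2.99 ± 0.59 (adjusted p = 0.119 by edgeR, 0.0167 by edgeR with the replicate block and 0.000107 by DESeq2). Ccnd2, the D-type cyclin that is induced by T cell activation, had 141 and 49.9 CPM in NK1.1+ ILTCk, against 407 and 549 CPM in PD1+ Tconv, a log2 fold change of -2.32 ± 0.57 (adjusted p = 0.176 by edgeR, 0.0278 by edgeR with the replicate block and 0.00372 by DESeq2). In both genes the groups did not overlap, and NK1.1+ ILTCk replicate 2 was the lowest of the 6 libraries. Cenpf had 19.9 and 8.35 CPM in NK1.1+ ILTCk, against 42.1 and 38.4 CPM in PD1+ Tconv, and Cenpe 13.8 and 2.93 CPM, against 34.1 and 20.8 CPM. Their log2 fold changes were -1.51 ± 0.51 and -1.72 ± 0.74 (edgeR adjusted p = 0.265 and 0.354). Cdkn1b had 13.4 and 7.36 CPM, against 26.0 and 29.9 CPM, with -1.43 ± 0.47 (edgeR adjusted p = 0.257), again without overlap.

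Other mitotic genes lay on the other side. Ccnb1 had 167 and 120.3 CPM in NK1.1+ ILTCk, against 68.3 and 49.4 CPM in PD1+ Tconv, with a log2 fold change of 1.29 ± 0.39 (edgeR adjusted p = 0.234). Aurka, the kinase of the spindle poles, had 57.6 and 45.3 CPM, against 24.6 and 18.9 CPM, with 1.24 ± 0.45 (edgeR adjusted p = 0.294), and Aurkb 91.5 and 68.5 CPM, against 48.1 and 31.9 CPM, with 1.00 ± 0.47 (edgeR adjusted p = 0.399). In all 3 the NK1.1+ libraries were the higher ones without overlap. Top2a had 236.5 and 38.3 CPM in NK1.1+ ILTCk, against 318 and 144 CPM in PD1+ Tconv, so that the spread within NK1.1+ ILTCk was larger than the difference (-0.75 ± 0.80, edgeR adjusted p = 0.734). The other mitotic genes lay between -0.98 (Kif11) and 0.94 (Plk1). Over the 43 genes, 11 were higher and 6 lower without overlap, where 20.7% and 20.8% of all tested genes were.

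None of the licensing and synthesis genes was called in NK1.1+ ILTCk against PD1+ Tconv. Mcm2 had 142.5 and 112 CPM, against 177 and 73.4 CPM in PD1+ Tconv (0.03 ± 0.52 on the log2 scale), Mcm5 260 and 165 CPM, against 196 and 121.5 CPM (0.42 ± 0.46), and Cdc6 26.9 and 18.6 CPM, against 29.9 and 14.1 CPM (0.04 ± 0.49). Cdt1 had 30.0 and 38.9 CPM in NK1.1+ ILTCk, against 56.0 and 39.0 CPM in PD1+ Tconv (-0.46 ± 0.43). The groups of Mcm2, Mcm5 and Cdc6 overlapped, with edgeR adjusted p-values of 0.745 to 0.988, and those of Cdt1 were apart by less than 1 CPM (edgeR adjusted p = 0.679). Mcm7, Mcm6, Mcm3 and Mcm4 had 0.38 ± 0.37, -0.07 ± 0.44, -0.10 ± 0.50 and -0.31 ± 0.69. Of the synthesis genes, Tk1, the thymidine kinase of the salvage pathway, had 0.63 ± 0.37, Gins2, a subunit of the active helicase, 0.49 ± 0.41, Rrm1 0.67 ± 0.63, Cdc45 0.38 ± 0.53 and Rrm2 0.32 ± 0.65, with edgeR adjusted p-values of 0.499 to 0.876, and Pcna and Tyms had 0.18 ± 0.38 and -0.10 ± 0.35. E2f1 had 0.97 ± 0.43, Ccne1 0.29 ± 0.62 and Ccne2 -0.99 ± 1.17. Ccnd3 had 202 and 135.5 CPM, against 325 and 182 CPM (-0.59 ± 0.51, edgeR adjusted p = 0.657), and Cdkn1a 62.0 and 151 CPM, against 42.0 and 77.2 CPM (0.84 ± 0.57, edgeR adjusted p = 0.563), with overlap.

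NK1.1- ILTCk were compared with the same PD1+ Tconv libraries, so these values and the preceding ones are not independent. By edgeR 0 of the 43 genes passed an adjusted p of 0.05 (0% of all genes); at an unadjusted p under 0.05, 1 was higher (5.96% of all genes) and 3 lower (5.91%), and DESeq2 (2.62% of all genes higher, 2.12% lower) and limma-voom called 0. Ccnd2 had 154 and 119 CPM in NK1.1- ILTCk, against 407 and 549 CPM in PD1+ Tconv, with a log2 fold change of -1.80 ± 0.56 (adjusted p = 0.361 by edgeR and 0.0569 by DESeq2). Mki67 had 32.4 and 53.8 CPM, against 155 and 78.2 CPM (-1.44 ± 0.56, edgeR adjusted p = 0.396), and Cdkn1b 12.1 and 13.3 CPM, against 26.0 and 29.9 CPM (-1.14 ± 0.46, edgeR adjusted p = 0.41). Ccnb1 had 136 and 109 CPM, against 68.3 and 49.4 CPM (1.06 ± 0.39, edgeR adjusted p = 0.389). The groups did not overlap in any of these 4 genes. Over the 43 genes, 4 were higher and 5 lower without overlap, where 23.1% and 22.7% of all tested genes were.

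The licensing genes of NK1.1- ILTCk had a median log2 fold change of -0.31 against PD1+ Tconv. Cdt1 had 32.2 and 19.2 CPM in NK1.1- ILTCk, against 56.0 and 39.0 CPM in PD1+ Tconv (-0.88 ± 0.43, edgeR adjusted p = 0.457), without overlap. Mcm2 had -0.51 ± 0.52, Mcm3 -0.36 ± 0.50, Mcm4 -0.44 ± 0.69, Mcm5 -0.18 ± 0.46, Mcm6 -0.25 ± 0.44 and Cdc6 0.11 ± 0.49, with overlapping libraries. Synthesis genes had a median of 0.12, with Gins2 at 0.40 ± 0.41 and Rrm1 at 0.47 ± 0.62, and mitotic genes one of 0.17. Among the mitotic genes Aurka had 0.73 ± 0.44, Cdc20, which activates the anaphase ligase, 0.57 ± 0.39, Aurkb 0.28 ± 0.47, Top2a -0.29 ± 0.80 and Cenpf -0.69 ± 0.50. Ccnd3 had -0.82 ± 0.51 and Cdkn1a 0.54 ± 0.57. The edgeR adjusted p-values of the genes in these sentences were all above that of Ccnd2.

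**Figure D5:**
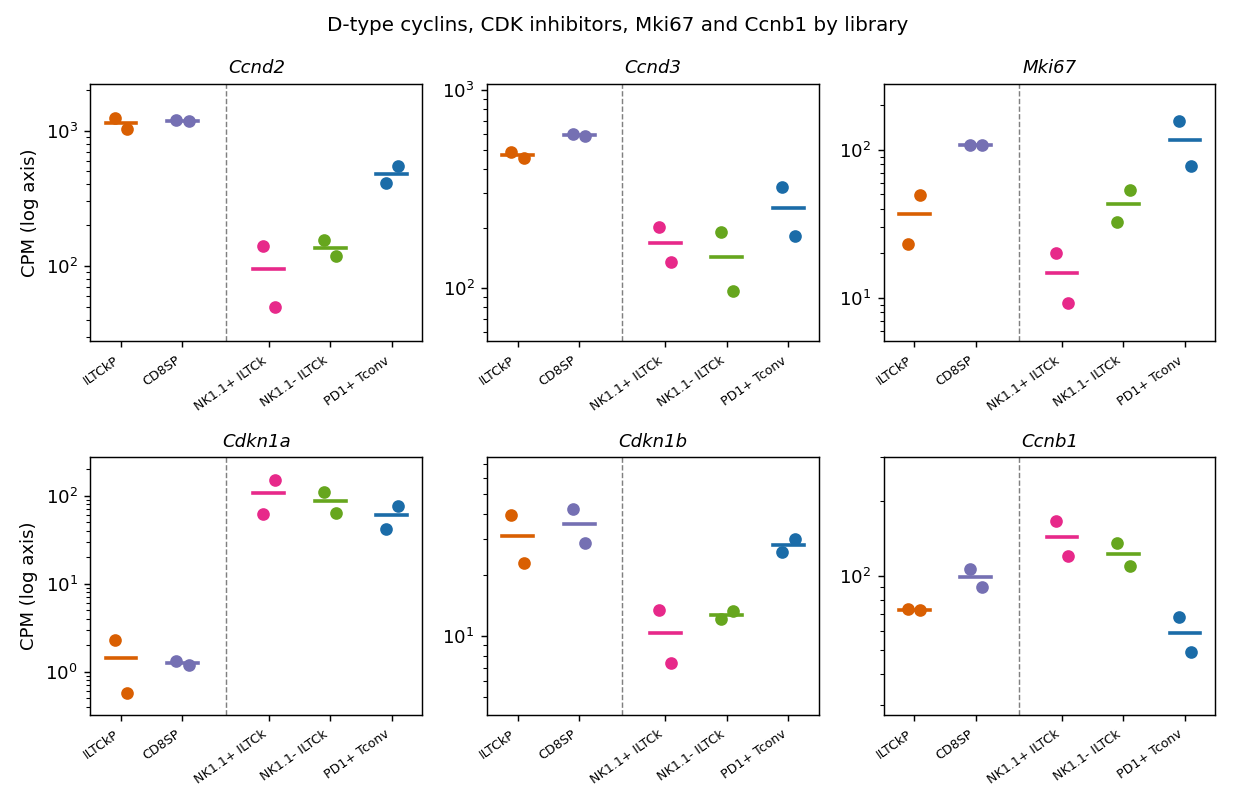
Level of Ccnd2, Ccnd3, Mki67, Cdkn1a, Cdkn1b and Ccnb1 in each library (CPM, log axis; points are libraries, bars are means of 2), with the thymic table left and the tumour table right of the dashed line. The points of Ccnd2 and Mki67 lie below those of PD1+ Tconv in both ILTCk groups, those of Ccnb1 above, and Cdkn1a is 0.582 to 2.33 CPM in the thymic libraries and 42.0 to 151 CPM in the others.

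NK1.1+ and NK1.1- ILTCk were set against each other within the ILTCk. By edgeR, DESeq2 and limma-voom 0 of the 43 genes passed an adjusted p of 0.05 (0% of all genes by edgeR, and by DESeq2 0.236% higher and 0.137% lower), and at an unadjusted p under 0.05, 1 was higher (2.18% of all genes) and 1 lower (1.75%) by edgeR. The higher, named after its values were seen, was E2f1, the activator of S-phase genes, with 46.3 and 65.98 CPM in NK1.1+ ILTCk, against 23.6 and 19.5 CPM in NK1.1- ILTCk (1.38 ± 0.43, edgeR adjusted p = 1). The lower was Mki67, with 20.2 and 9.21 CPM, against 32.4 and 53.8 CPM (-1.55 ± 0.56, edgeR adjusted p = 1). Both were without overlap between the groups, as were 4 genes higher and 3 lower in all, where 18.6% and 18.9% of all tested genes were. Top2a had -0.46 ± 0.80, Ccnb1 0.23 ± 0.38, Aurkb 0.72 ± 0.47, Cenpe -1.36 ± 0.73 and Cenpf -0.82 ± 0.50. Licensing genes had a median log2 fold change of 0.27, with Mcm2 at 0.54 ± 0.52, Mcm5 at 0.60 ± 0.46, Cdt1 at 0.42 ± 0.43 and Cdc6 at -0.06 ± 0.49. Synthesis genes had one of 0.10, with Tk1 the highest at 0.56 ± 0.37. Ccnd2, Ccnd3, Cdkn1a and Cdkn1b lay between -0.52 and 0.30.

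The wider list of cell cycle genes gave 0 calls by edgeR in the 3 comparisons of the tumour table, over 120 tested members. Against PD1+ Tconv, the NK1.1+ cells had 1 higher and 4 lower, and the NK1.1- cells 0 higher and 3 lower, at an unadjusted p under 0.05, against 6.98% of all genes higher and 7.34% lower for the NK1.1+ cells and 5.96% and 5.91% for the NK1.1- cells. DESeq2, and edgeR with the replicate block, called Cdk6 and Smc4 lower in the NK1.1+ cells and Cdk6 also in the NK1.1- cells, and both genes are named for that reason. Cdk6, the kinase partner of the D-type cyclins, averaged 113 ± 44 CPM for NK1.1+ ILTCk, 86.7 ± 1.85 CPM for NK1.1- ILTCk and 401 ± 24.4 CPM for PD1+ Tconv (SD, n = 2 each). Its log2 fold changes against PD1+ Tconv were -1.83 ± 0.42 and -2.21 ± 0.43 (adjusted p = 0.0024 and 0.000356 by DESeq2, 0.162 and 0.334 by edgeR). Smc4, a condensin subunit, had 18.6 ± 16.9 CPM in NK1.1+ ILTCk and 158 ± 61.5 CPM in PD1+ Tconv (-3.08 ± 0.74, adjusted p = 0.0012 by DESeq2 and 0.169 by edgeR).

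Markers of other cells differed in level between the groups of the tumour table. The sum over the 9 T cell markers was 3753 and 790 CPM for NK1.1+ ILTCk, 1989 and 1442 CPM for NK1.1- ILTCk, and 6026 and 4200 CPM for PD1+ Tconv. The 14 macrophage and monocyte markers summed to 9209 and 25240 CPM, 4107 and 3824 CPM, and 317 and 1536 CPM in the same groups, and 0 of them were at 0 counts in any of these libraries. The 14 epithelial and mammary tumour markers gave sums of 5246 and 6840 CPM for NK1.1+ ILTCk, 7987 and 9265 CPM for NK1.1- ILTCk, and 1764 and 3747 CPM for PD1+ Tconv. Against PD1+ Tconv, DESeq2 called 12 of the 14 macrophage markers higher in the NK1.1+ cells and 3 in the NK1.1- cells. Of all genes it called 3.9% and 2.62% higher. EdgeR called 0 of these markers, and 0 of all 18091 tested genes. In the thymic libraries the macrophage list summed to 27.1 to 50.2 CPM and the epithelial list to 11.1 to 15.3 CPM. The part of such cells in the levels of the 43 genes was not tested.

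The libraries of a group differed more in the tumour table than in CD8SP. The median absolute log2 difference between replicates over the 43 genes was 0.38 for ILTCkP, 0.18 for CD8SP, 0.68 for NK1.1+ ILTCk, 0.56 for NK1.1- ILTCk and 0.77 for PD1+ Tconv, beside 0.53, 0.20, 0.53, 0.39 and 0.73 for all tested genes. Replicate 1 was the higher library for 40 of the 43 NK1.1+ ILTCk values, 39 of those of NK1.1- ILTCk and 36 of those of PD1+ Tconv. In NK1.1+ ILTCk the mitotic genes were 1.09 lower in replicate 2 (median log2 difference) and the licensing genes 0.43 lower. The genes of the next sentences were picked for their gaps. On the log2(CPM + 0.5) scale the largest gap there, 3.27, was that of Kif11, with 75.9 and 7.40 CPM. Nusap1, which bundles spindle microtubules, had 70.6 and 9.43 CPM, Bub1 32.5 and 4.02 CPM and Top2a 236.5 and 38.3 CPM. NK1.1+ ILTCk replicate 2 was also the library with the lowest T cell and the highest macrophage marker sum.

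Fold changes in the tumour table varied with transcript length as well. For NK1.1+ ILTCk over PD1+ Tconv the median log2 fold change was 0.02 for all transcripts under 2 kb, 0.09 for 2 to 4 kb, -0.14 for 4 to 6 kb and -0.47 over 6 kb, and 0.55, 0.38, -0.12 and -2.02 for the members of the 43 in these classes (8, 24, 7 and 4 genes). The 4 longest were Cenpf, Mki67, Cenpe and Ccnd2. Across the 21 mitotic genes Pearson's r with log2 length was -0.81 for NK1.1+ ILTCk and -0.67 for NK1.1- ILTCk over PD1+ Tconv. The 2 comparisons share their control libraries, and the values are a description. Over all tested genes r with log2 length was -0.03 and 0. With GC it was 0.56 and 0.47 for the mitotic genes, beside 0.17 and 0.03 over all tested genes. For NK1.1+ over NK1.1- ILTCk, r over the mitotic genes was -0.83 with log2 length and 0.57 with GC. Over all tested genes it was -0.05 and 0.22. With the length and GC trends taken into the fit, that comparison had -1.2 for Mki67, -1.05 for Cenpe, -0.31 for Cenpf and 1.08 for E2f1. In the fit with length and GC trends Mki67 had -2.38 and Ccnd2 -2.10 in NK1.1+ ILTCk against PD1+ Tconv (edgeR adjusted p = 0.135 and 0.185), and Ccnb1 had 1.36 (edgeR adjusted p = 0.17). Cenpf had -0.68 there, Cenpe -1.13, Cdkn1b -1.16, Aurka 0.93 and Aurkb 0.65, each smaller in size than without the trends.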

How the data were processed

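The values are raw counts per gene, deposited by the authors in 1 table for the 4 thymic libraries and 1 for the 6 others. Per the submitters' processing notes the build was mm10 and DESeq was used (version not stated); no source used here gives the aligner, counter, annotation, strand setting or batches. Of the 14 samples, 4 single-cell libraries (Cell Ranger 3.0.2 and Seurat 2.3.4 in those notes) were not analysed here. Each table was filtered with edgeR's default filter on low counts, scaled by TMM and fitted with edgeR 4.0.16 (quasi-likelihood test, R 4.3.3, no covariates, the 3 groups of the tumour table in 1 fit); p-values were adjusted by Benjamini and Hochberg over all tested genes, with a threshold of 0.05. A pseudocount of 0.5 CPM was used on the log scale. Alternatives were DESeq2 1.42.0, limma-voom (limma 3.58.1), other scalings and filters, a replicate block, each library left out and, added after the data were seen, a loess correction (span 0.3) for transcript length and GC from GENCODE M21. The labels do not say what a replicate number shares. In the tumour table deviations of same-numbered libraries correlated at 0.39, 0.35 and 0.39 between the 3 pairs of groups. Members whose call the replicate block changes are therefore named with their adjusted p under the block. The scripts were tested on simulated data. The members and lists were chosen with earlier results of these data known. Named in each comparison were the called members and 12 fixed genes (Mcm2, Mcm5, Cdc6, Cdt1, Ccnb1, Aurkb, Top2a, Mki67, Ccnd2, Ccnd3, Cdkn1a and Cdkn1b). The genes with the 5 smallest p-values in each role group of 5 or more were to be named too. In the comparisons with NK1.1- ILTCk some of these were left out. Of other cycle genes, those called were named, at most 6 in each direction. Other genes given with values were chosen after these were seen. Errors of fold changes are standard errors from the edgeR fit.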

Additional observations from a re-analysis of the deposited data

How the results depend on the processing

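In the thymic comparison, the 3 calls among the 43 genes stood with RLE and upper-quartile scaling. DESeq2 called 11, limma-voom 6, no filter on low counts 12 (3.97% of all genes lower) and a filter of at least 50 counts in 2 libraries 6 (2.05% lower), all of them lower in ILTCkP, and the counts without 1 library ran between 0 and 24. In NK1.1+ ILTCk over PD1+ Tconv, DESeq2 called 2, as did the test without a filter on low counts (1.77% of all genes lower, 2.13% higher), and in NK1.1- ILTCk over PD1+ Tconv leaving out that filter called 1 (1.13% lower, 1.37% higher). The cause of these differences was not tested.

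With the replicate number as a block, 11 of the 43 genes were called lower in the thymic comparison (6.46% of all genes lower, 8.66% higher), with 25 lower and 2 higher of the 118 other cell cycle genes. The block called 2 of the 43 in NK1.1+ ILTCk over PD1+ Tconv (Ccnd2 and Mki67) and 0 in the other comparisons of the tumour table (0.735% of all genes lower and 0.912% higher for NK1.1- ILTCk over PD1+ Tconv, 0% for NK1.1+ over NK1.1- ILTCk). In the thymus, with 2 pairs, deviations of same-numbered libraries correlated at 0.16, a hint from the data and not from the design. Cdkn1a in the thymus had -0.11 under the block and -0.21 by limma-voom.

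The difference in the licensing minus mitotic score was 0.60 in the thymus, -0.32 in NK1.1+ ILTCk over PD1+ Tconv and -0.59 in NK1.1- ILTCk over PD1+ Tconv with Ccnb1, Aurkb and Top2a alone. With the length and GC correction, which was chosen after the data were seen, it was 0.23 in the thymus. Without 1 library it ran between 0.47 and 0.58 in the thymus, -0.24 and 0.49 in NK1.1+ ILTCk over PD1+ Tconv, -0.43 and -0.23 in NK1.1- ILTCk over PD1+ Tconv, and 0.09 and 0.82 in NK1.1+ over NK1.1- ILTCk.

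Of 91 fold changes recomputed, 39 turned their sign under some setting, none of them called and the largest 0.75 in size. The length and GC correction turned Mcm2 to -0.07, Mcm5 to -0.03, Mcm7 to -0.06, Cdkn1a to -0.27, Ccnd2 to 0.16, Cdkn1b to 0.44 and Rrm1 to 0.31 in the thymus. It turned Mcm2 to -0.23 in NK1.1+ ILTCk over PD1+ Tconv, Pcna to -0.05 in NK1.1- ILTCk over PD1+ Tconv and Gins2 to -0.09 in NK1.1+ over NK1.1- ILTCk. Other signs turned when 1 library was left out, and their ranges of log2 fold change follow. For ILTCkP over CD8SP these were Mcm2 -0.11 to 0.69, Mcm5 -0.05 to 0.43, Aurkb -0.59 to 0.07, Ccnd2 -0.18 to 0.06, Cdkn1a -1.12 to 0.86, Cdkn1b -0.62 to 0.16, Mcm7 0.00 to 0.48 and Rrm1 -0.13 to 0.01. For NK1.1+ ILTCk over PD1+ Tconv these were Mcm2 -0.50 to 0.81, Cdc6 -0.43 to 0.71, Top2a -2.59 to 0.04, Mcm4 -1.07 to 0.95, Mcm3 -0.57 to 0.56, Rrm1 -0.01 to 1.87, Cdc45 -0.11 to 0.96 and Rrm2 -0.29 to 1.30. For NK1.1- ILTCk over PD1+ Tconv these were Mcm2 -1.02 to 0.27, Mcm5 -0.57 to 0.22, Cdc6 -0.34 to 0.77, Aurkb -0.33 to 0.74, Top2a -0.76 to 0.41, Mcm3 -0.81 to 0.30, Mcm4 -1.10 to 0.83, Mcm6 -0.67 to 0.34, Rrm1 -0.18 to 1.67, Rrm2 -0.46 to 1.23 and Pcna -0.09 to 0.29. For NK1.1+ ILTCk over NK1.1- ILTCk these were Cdc6 -0.35 to 0.18, Ccnb1 -0.03 to 0.44, Top2a -2.30 to 0.32, Ccnd2 -1.46 to 0.04, Ccnd3 -0.21 to 0.81, Cdkn1a -0.48 to 0.80, Cdkn1b -0.79 to 0.08, Mcm3 -0.21 to 0.62, Cdc45 -0.23 to 0.72, Rrm1 -0.19 to 0.50, Pcna -0.07 to 0.24 and Gins2 -0.15 to 0.33. With 2 libraries a group, a left-out library leaves the other to be judged by the spread of the remaining groups.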
